A study of Arabidopsis thaliana with 8 samples.

Results

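FBL17, SIM and AT1G08180 (SMR2) are 3 Arabidopsis thaliana genes that act on the cyclin-dependent kinases (CDKs) of the plant cell cycle. They were chosen by name among the genes that the platform annotation pairs alone with a probe set on the array. They are 3 of the 13350 genes so paired, with 3 probe sets of the 22746 tested. Each of the 3 genes has 1 probe set, and none of them appears on a probe set shared by several genes. RefSeq places FBL17 (AT3G54650) on chromosome 3, SIM (AT5G04470) on chromosome 5 and AT1G08180 on chromosome 1, all as protein-coding genes.

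The study measured whole Col-0 seedlings on ATH1 arrays, single-colour oligonucleotide arrays, under a title about E2F targets. There were 4 wildtype arrays and 4 arrays of a group called E2Fa-Dpa, after the transcription factor pair E2Fa and DPa. All seedlings grew on agar with Murashige and Skoog salts and were harvested 6 days after germination, 8 days after sowing. How this group was made, with which promoter and from how many lines is not in the labels, and the levels of E2FA and DPA were not analysed here. Nothing states that arrays of a group came from separate sowings, and p-values therefore cover the spread among these arrays only, which may be technical.

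FBL17 is an F-box protein, the subunit by which an SCF ubiquitin ligase recognises its substrates. In Arabidopsis it promotes the removal of the KRP inhibitors of CDKs, and it is known for letting germ cells of pollen and cells of growing organs enter S phase. SIM gave its name to a separate family of CDK inhibitors, and it is known from leaf hairs (trichomes), where it keeps cells from dividing while they replicate their DNA again without division. AT1G08180 is a relative of SIM. E2F factors bind promoters as dimers with DP proteins and are known for driving genes of S phase.

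The arrays also differed in a way that the groups do not explain, and this bears on each value below. Probe sets for Bacillus RNAs, which can be added to a sample as a control, gave signal on 4 arrays, those of wildtype replicates 3 and 4 and those of replicates 1 and 4 of E2Fa-Dpa, and almost none on the other 4. These sets of 4 arrays are called the arrays with and without control RNA. The arrays of 1 group and 1 set are the closest pairs, with correlations from 0.9743 to 0.9941, and if a pair came from 1 RNA there would be 2 samples per group and not 4. Between the sets 26.3% of probe sets differed with the group in the model. Leaf and root transcripts were abundant on every array, with PSAN of photosystem I from 1859 to 2658 and the root glucosidase PYK10 from 2486 to 4608.

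FBL17 transcripts were several times more abundant in the E2Fa-Dpa seedlings, while those of SIM and AT1G08180 did not pass the test in either direction. The MAS5 signal of FBL17, a linear intensity scaled by the authors, was 94.42 ± 13.1 in wildtype and 595.2 ± 120 in E2Fa-Dpa (SD, n = 4 each). That of SIM was 140.7 ± 29.7 and 151.9 ± 14.4, and that of AT1G08180 was 21.64 ± 2.82 and 18.35 ± 1.19. Signals of different probe sets depend on their own probes, so the 3 levels are not ranked against each other. Fold changes below are differences of log2(signal + 16) from a linear model over all 8 arrays (limma, Benjamini-Hochberg adjustment over all tested probe sets, threshold 0.05). With whole seedlings, fewer cells that express a gene and less RNA per cell cannot be told apart.

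**Figure D1:**
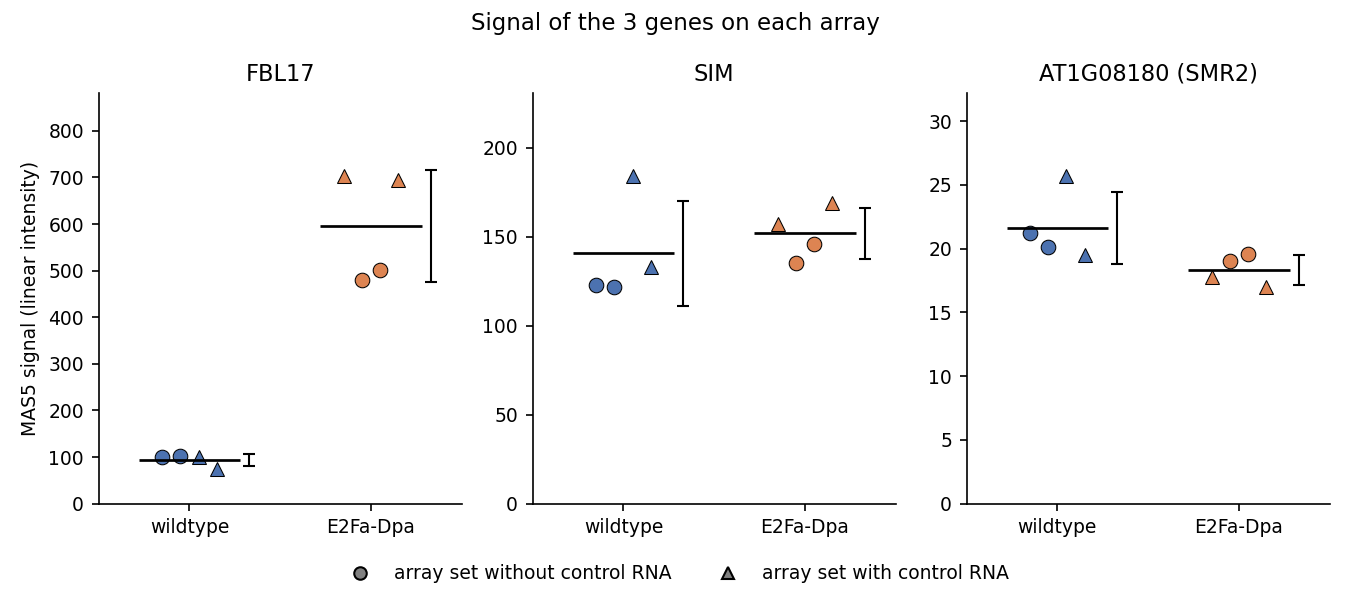
MAS5 signal (linear intensity) of FBL17, SIM and AT1G08180 on each of the 8 arrays, by group. Circles are arrays without and triangles arrays with Bacillus control RNA, horizontal lines are group means and bars at the right of each group are ± 1 SD (n = 4). The FBL17 values of the groups are far apart, from 74.81 to 101.3 in wildtype and from 481 to 704.1 in E2Fa-Dpa, while those of SIM and AT1G08180 overlap.

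For FBL17, wildtype replicates 1, 2, 3 and 4 gave 100.5, 101.3, 101.1 and 74.81. E2Fa-Dpa replicates 1, 2, 3 and 4 gave 704.1, 481, 501.7 and 694. Wildtype values were nearly equal except for replicate 4, and the lowest E2Fa-Dpa value was 4.75 times the highest wildtype value. The rise was 2.46 ± 0.164 on the log2 scale (SE, limma, adjusted p = 0.000105), with a 95% interval of 2.09 to 2.82. The ratio of mean signals was 6.3. In the same test 4.36% of all probe sets rose and 2.94% fell, and the rise of FBL17 was number 30 by size among the 22746 tested. Under the array scaling that centres each array on its median, 781 probe sets rose and 1080 fell, against 992 and 669 with the authors' scaling, and FBL17 rose by 2.39.

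The rise of FBL17 was present in both array sets. Without control RNA the mean went from 100.9 to 491.3, a difference of 2.12 on the log2 scale, and with control RNA from 87.96 to 699.1, a difference of 2.79. The 2 E2Fa-Dpa arrays with control RNA lay above the 2 without it. The difference between these rises, 0.68, did not pass the test (limma interaction, adjusted p = 0.247), which 0.0835% of probe sets passed. Blocking on array set gave an adjusted p of 3.12e-05, in a fit where 11.7% of probe sets rose, and a random block for the close pairs gave 0.00049, where 1.53% rose. With each close pair averaged to a single value the fold change stayed and the call was lost (adjusted p = 0.105), in a fit that called 2 probe sets in all. Over all alternatives run in limma, adjusted p-values of FBL17 lay between 3.12e-05 and 0.105, and an exact two-sided permutation test over the 70 splits of the 8 arrays gave its smallest possible value, p = 0.0286, counting the close pairs as separate arrays. The genes were chosen with the rise of FBL17 known, so its p-values are no independent test of that rise.

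For SIM, wildtype replicates 1, 2, 3 and 4 gave 123.1, 121.9, 184.5 and 133.2. E2Fa-Dpa replicates 1, 2, 3 and 4 gave 157.2, 135.3, 146.2 and 169. All E2Fa-Dpa values lay between the lowest and the highest wildtype value, and wildtype replicate 3 was the highest of the 8. The difference was 0.11 ± 0.147 on the log2 scale (SE, limma, adjusted p = 0.71). Its 95% interval ran from -0.22 to 0.44, which is 0.86-fold to 1.36-fold, so a rise as large as that of FBL17 lies outside it. The exact permutation test gave p = 0.371, and without wildtype replicate 3 the difference was 0.24 (limma, adjusted p = 0.252).

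SIM signals followed the array sets in both groups. Mean signals without and with control RNA were 122.5 and 158.9 in wildtype and 140.8 and 163.1 in E2Fa-Dpa. That difference between sets, 0.26 on the log2 scale, did not pass the test (limma, adjusted p = 0.111). The group difference was 0.18 in the arrays without and 0.05 in the arrays with control RNA, and neither passed within its set (limma, adjusted p = 0.297 and 0.902).

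AT1G08180 gave a low signal on every array. Wildtype replicates 1, 2, 3 and 4 gave 21.22, 20.12, 25.73 and 19.5. E2Fa-Dpa replicates 1, 2, 3 and 4 gave 17.81, 19, 19.61 and 16.96. The groups overlapped by a single pair of arrays, E2Fa-Dpa replicate 3 lying just above wildtype replicate 4. The difference was -0.13 ± 0.109 on the log2 scale (SE, limma, adjusted p = 0.536), with an interval of 0.771-fold to 1.08-fold, and the exact permutation test gave p = 0.0571. For so low a signal log2(signal + 16) understates a change, and with a pseudocount of 1 the difference was -0.22 (limma, adjusted p = 0.618). No detection calls were used. On the 4 arrays without control RNA the Bacillus probe sets, then without their target, read between 0.178 and 13.71. All AT1G08180 values lay above that range, the lowest of them, 16.96, not far above it.

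The balance of the degrader against each inhibitor transcript was taken as the difference of their log2(signal + 16) values within an array. It was not tested, because the genes were chosen with the rise of FBL17 known, and its absolute value carries no meaning since the probe sets differ. A shift of it between groups shows only that the transcripts changed unequally. For FBL17 over SIM, wildtype replicates 1, 2, 3 and 4 gave -0.26, -0.23, -0.78 and -0.72, and E2Fa-Dpa replicates 1, 2, 3 and 4 gave 2.06, 1.72, 1.68 and 1.94. Every E2Fa-Dpa array lay above every wildtype array, with a gap of 1.91 between the nearest of them. The group means were -0.50 ± 0.29 and 1.85 ± 0.18 (SD, n = 4 each), a shift of 2.34 ± 0.17 (SE).

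For FBL17 over AT1G08180 the wildtype arrays lay between 1.36 and 1.70 and the E2Fa-Dpa arrays between 3.83 and 4.43. The shift was 2.59 ± 0.18 (SE, n = 4 each) and the gap between the nearest arrays was 2.13. With the low signal of AT1G08180 this shift is no exact fold. Both shifts exceeded the spread between replicates several times over, and they share the FBL17 values, so they are not independent. Within the arrays without control RNA the shifts were 1.94 over SIM and 2.17 over AT1G08180, and within those with it 2.74 and 3.00. The balance of these 2 inhibitor transcripts against each other moved little, SIM over AT1G08180 shifting by 0.24 ± 0.12 (SE, n = 4 each) with overlapping groups. These balances cover SIM and AT1G08180 only. Of the 8 measured loci of a SIM list, described below, 2 rose themselves, AT5G40460 by 2.23 and AT1G10690 by 0.86 on the log2 scale.

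**Figure D2:**
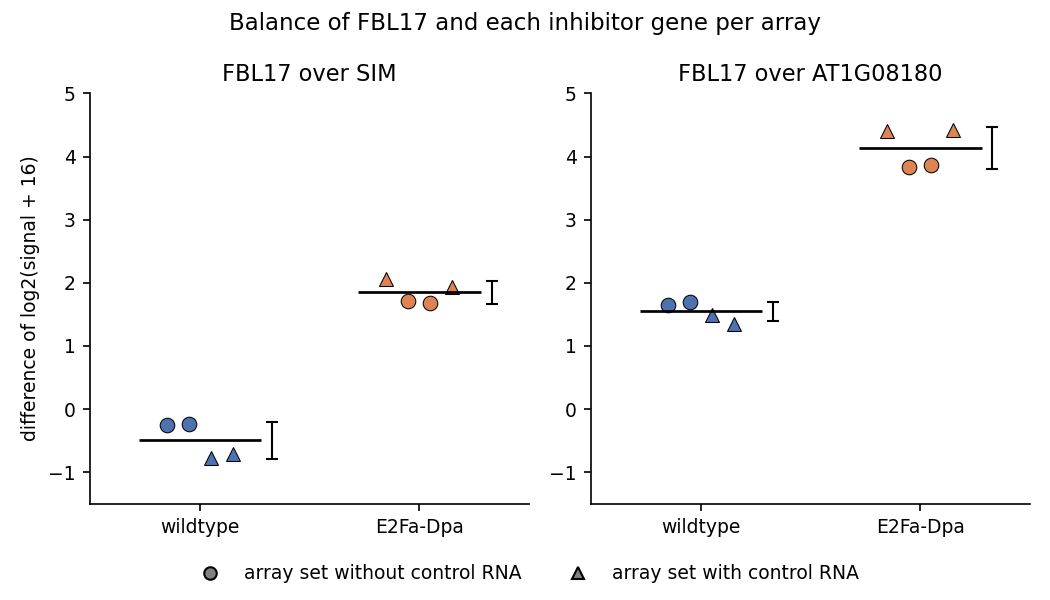
Difference of log2(signal + 16) between FBL17 and SIM (left) and between FBL17 and AT1G08180 (right) on each array, by group. Circles are arrays without and triangles arrays with control RNA, lines are group means and bars are ± 1 SD (n = 4). Wildtype and E2Fa-Dpa arrays are separated in both panels, by 1.91 and 2.13 between the nearest arrays.

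Not every relative of SIM behaved like SIM and AT1G08180. A list of 13 SIM-related loci, written from general knowledge of the family, had 8 measured loci including these 2, and of the 8, 2 rose and none fell (limma, and none at an unadjusted p under 0.05). Over all probe sets 4.36% rose. The list's median log2 fold change was 0.05, against 0.004 over all tested probe sets. Like the lists below, it was chosen with earlier results of these data known, so its counts are a description only. The annotations used here give no family name to the 6 further loci, which are therefore called by their locus.

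AT5G40460 was the locus with the largest rise of the list. Its wildtype replicates 1, 2, 3 and 4 gave 14.68, 8.369, 10.09 and 11.77, and its E2Fa-Dpa replicates 1, 2, 3 and 4 gave 143.6, 83.31, 83.22 and 150.9. Of the wildtype values, 3 lie inside the range of the Bacillus probe sets without target and the fourth just above it, so the wildtype level cannot be told from background, and every E2Fa-Dpa value was far above that range. Mean signals were 11.23 ± 2.69 and 115.3 ± 37.1 (SD, n = 4 each), and the difference of log2(signal + 16) was 2.23 ± 0.206 (SE, limma, adjusted p = 0.000406), which against such a wildtype level is no exact fold. As with FBL17, the E2Fa-Dpa arrays with control RNA were higher than those without, the rises being 2.60 and 1.86 in the 2 sets (limma interaction, adjusted p = 0.253). The call held whichever array was left out (highest adjusted p 0.00273) and with the close pairs as a random block (0.0018), and it was lost with pairs averaged (0.136).

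AT1G10690 rose by 0.86 ± 0.185 on the log2 scale (SE, limma, adjusted p = 0.0252). Its wildtype replicates 1, 2, 3 and 4 gave 9.704, 23.66, 10.62 and 9.003, and its E2Fa-Dpa replicates 1, 2, 3 and 4 gave 42.89, 27.57, 31.39 and 43.84. All wildtype values but that of replicate 2 lie inside the range of the Bacillus probe sets without target, so here too the wildtype level cannot be told from background and 0.86 is no exact fold. The groups did not overlap, as in 9.53% of all probe sets for a rise, but wildtype replicate 2 came close to the lowest E2Fa-Dpa value. Leaving out any of wildtype replicates 1, 3 and 4 or any of replicates 1, 3 and 4 of E2Fa-Dpa ended this call (largest adjusted p 0.0862), and so did a random block for the close pairs (0.145).

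The 4 remaining loci did not pass the test and overlapped between groups. AT5G02420 went from 45.71 ± 7.54 to 53.14 ± 5.17 (SD, n = 4 each), with a log2 fold change of 0.17. AT2G28330 had 35.01 ± 5.64 and 35.31 ± 16.1, its E2Fa-Dpa arrays being 46.6 and 49.59 without control RNA and 14.68 and 30.35 with it. AT2G28870 had 14.76 ± 2.59 and 14.52 ± 2.39. Its values, from 10.99 to 18.61, lay partly inside the range of the Bacillus probe sets without target and otherwise not far above it. A change of it could therefore be missed. AT2G37610 lay between 0.2224 and 6.418 on all 8 arrays, inside the range of the Bacillus probe sets without target, so no change of it could be seen here. Their adjusted p-values lay between 0.519 and 0.967 (limma).

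**Figure D3:**
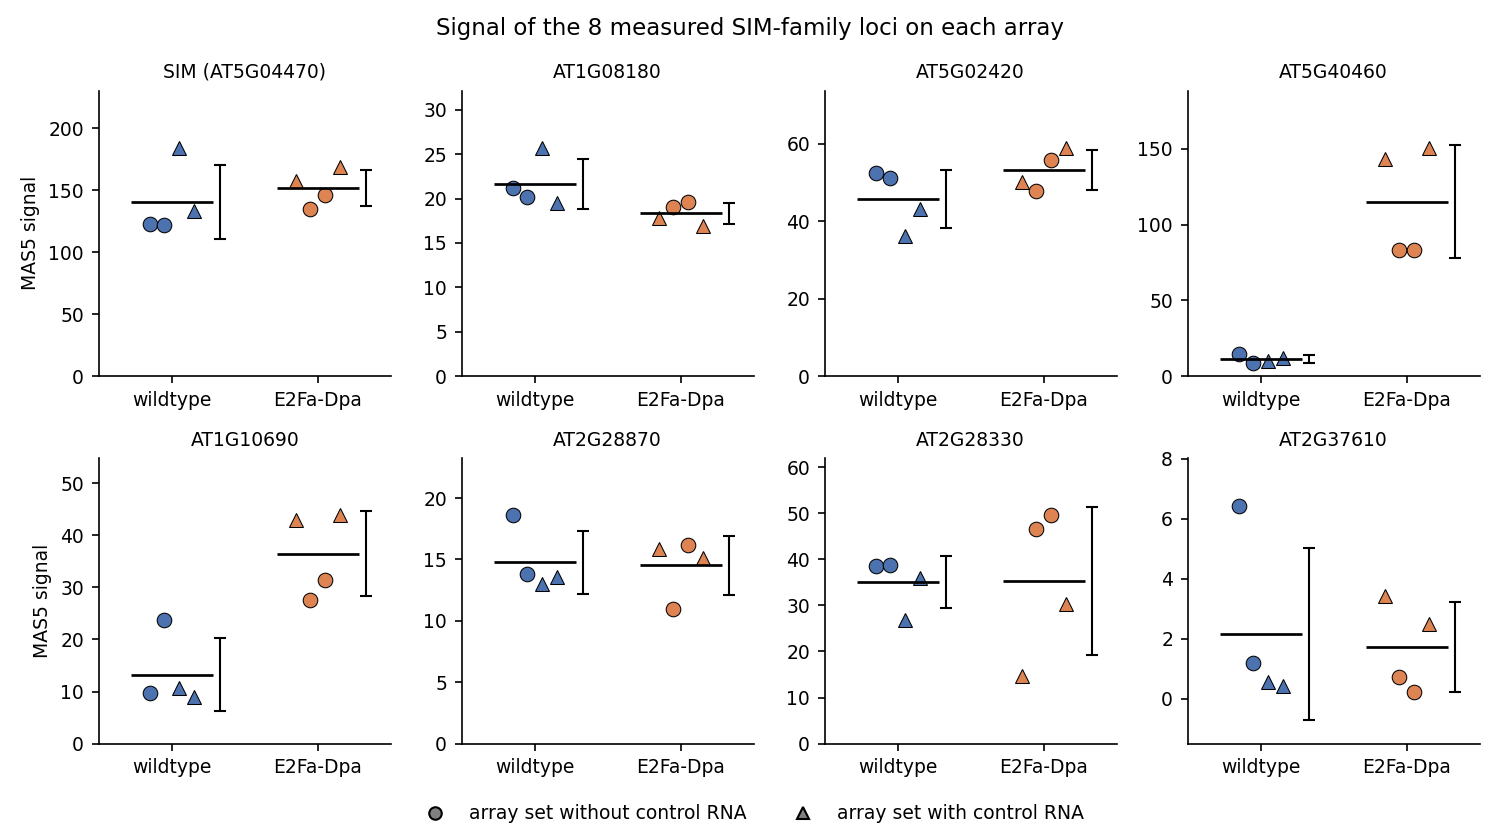
MAS5 signal of the 8 measured loci of the SIM list on each array, by group, each panel with its own scale. Circles are arrays without and triangles arrays with control RNA, lines are group means and bars are ± 1 SD (n = 4), which reach below 0 for AT2G37610. Groups are apart for AT5G40460 (8.369 to 14.68 against 83.22 to 150.9) and AT1G10690 (9.003 to 23.66 against 27.57 to 43.84) and overlap for the other loci.

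The inhibitors that FBL17 is known to remove could not be set beside it. None of the 7 KRP genes is paired alone with a probe set in the annotation used here, nor is any of the 13 CDK, CDK-activating and CKS genes, the 10 D-type cyclins, the 18 A- and B-type cyclins or the 9 genes of the RBR and E2F module of the lists. They were not analysed here. In all 16 of 112 listed genes were measured, of which 5 rose and none fell (limma, and none at an unadjusted p under 0.05), against 4.36% risen over all probe sets. Their median log2 fold change was 0.15, against 0.004 over all tested probe sets. FBL17 is among the 5, and the lists were chosen with earlier results of these data known, so these numbers are a description only.

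Among genes for the removal of inhibitors and for SCF ligases, 3 of 13 were measured. FBL17, chosen with its rise known, was the 1 that rose, against 4.36% risen over all probe sets. SKP2A, an F-box protein known for the turnover of E2F-family repressors, gave 200.3, 166.5, 62.43 and 52.49 in wildtype replicates 1, 2, 3 and 4. In E2Fa-Dpa replicates 1, 2, 3 and 4 it gave 59.31, 71.89, 57.65 and 74.15. The wildtype arrays without control RNA stood above all other arrays, so that the group difference was -1.30 on the log2 scale in that set and 0.17 in the other. Over all arrays SKP2A had -0.57 (limma, adjusted p = 0.385), and the difference between sets had an adjusted p of 0.086 (limma interaction). RHF1A, a RING-type ubiquitin ligase known for the turnover of a KRP inhibitor in pollen, had 0.10 (limma, adjusted p = 0.857).

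Genes whose RefSeq name marks them as F-box or SKP1-like were looked up after group values had been seen. The F-box genes CEG and UFO, a regulator of flower development, read between means of 1.016 and 2.702 in either group. SK18, which encodes a SKP1-like adaptor that joins F-box proteins to the ligase, had 66.9 ± 16.8 and 92.0 ± 16.1 (SD, n = 4 each), a log2 fold change of 0.39 (limma, adjusted p = 0.226). SK15, SK16 and SK19 had mean signals under 4 in both groups. None of these other genes passed the test.

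In the licensing list, genes that prepare origins for DNA replication, 2 of 17 were measured and both rose, against 4.36% risen over all probe sets. MCM7 (PRL), a subunit of the replicative helicase, gave 92.27, 91.76, 76.2 and 118.2 in wildtype replicates 1, 2, 3 and 4. In E2Fa-Dpa replicates 1, 2, 3 and 4 it gave 654.2, 448.9, 525.8 and 676.4. Its log2 fold change was 2.42 ± 0.167 (SE, limma, adjusted p = 0.000119), close to that of FBL17, and its E2Fa-Dpa arrays with control RNA were again the higher ones. AT1G07270 rose from 14.3 ± 3.63 to 34.43 ± 8.22 (SD, n = 4 each), by 0.73 on the log2 scale (limma, adjusted p = 0.0251). Its wildtype replicates 1 and 4 (13.4 and 9.982) lie inside the range of the Bacillus probe sets without target. Replicates 2 and 3 (18.7 and 15.11) lie not far above it, so 0.73 is no exact fold. Leaving out wildtype replicate 1 or 4, or any of replicates 1, 3 and 4 of E2Fa-Dpa, ended that call (largest adjusted p 0.0813), and so did a random block for the close pairs (0.164).

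Of 12 genes of the endocycle and of the anaphase-promoting complex, a ubiquitin ligase of mitosis, 3 were measured and none passed the test (limma, 1 at an unadjusted p under 0.05). Over all probe sets 4.36% rose and 2.94% fell. SAMBA, a plant regulator of that complex, had 68.99 ± 13.7 and 96.01 ± 10.8 (SD, n = 4 each), with a log2 fold change of 0.41 (limma, adjusted p = 0.129, and 0.0387 with a block for array set). In the fit with that block 11.7% of all probe sets rose. HBT and CDC27A, which encode alternative CDC27 subunits of the complex, had 0.30 and 0.13. CDC27A signals, from 9.877 to 20.11, lay partly inside the range of the Bacillus probe sets without target, so 0.13 is no exact fold.

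**Figure D4:**
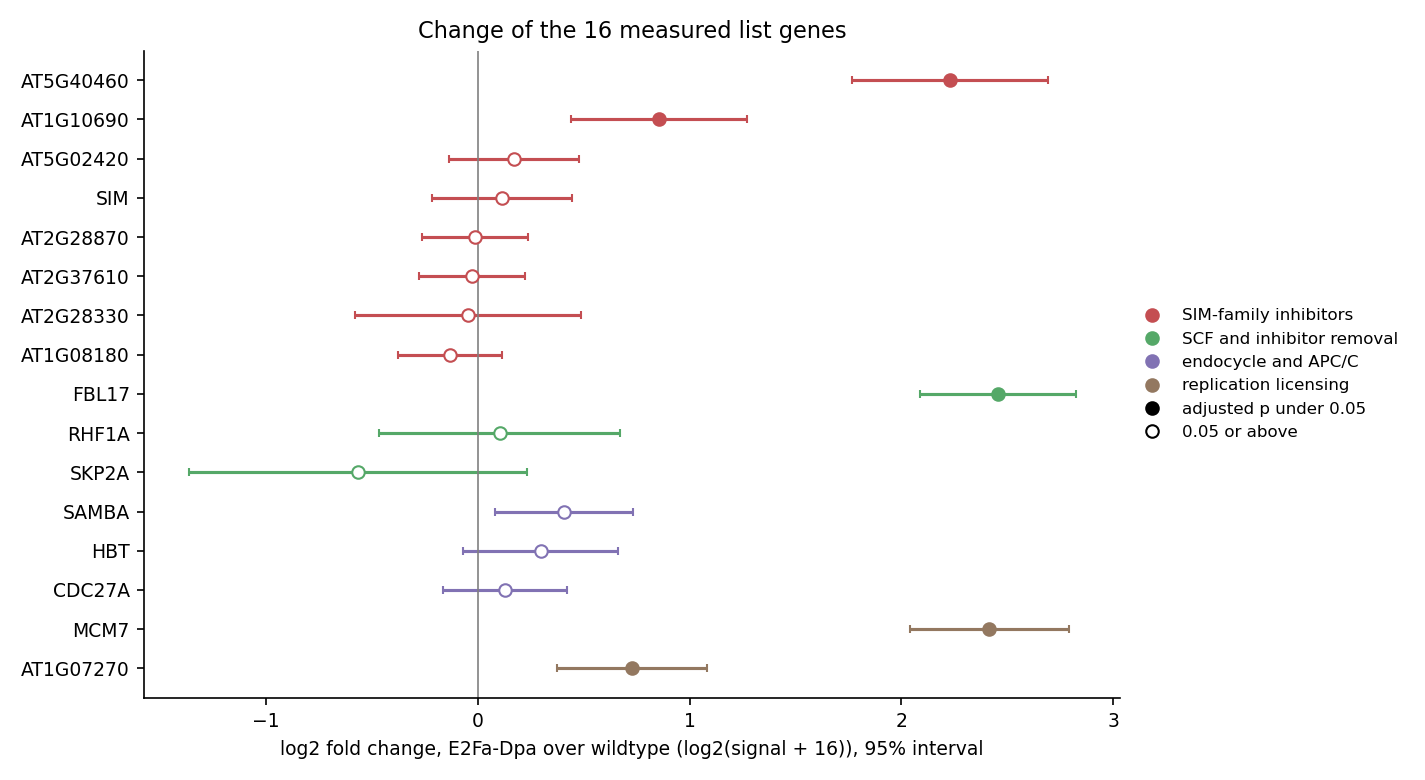
Log2 fold change, E2Fa-Dpa over wildtype on log2(signal + 16), of the 16 measured list genes with 95% intervals from the model over all probe sets (n = 4 arrays per group). Filled points have an adjusted p under 0.05. FBL17 (2.46), MCM7 (2.42) and AT5G40460 (2.23) stand apart from the other genes, AT1G10690 (0.86) and AT1G07270 (0.73) follow, and SIM (0.11) and AT1G08180 (-0.13) lie near 0.

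Markers of cell types and organs moved with the groups to a smaller extent. Over all probe sets 2.94% fell. Of 7 leaf genes 3 were measured, all lower in E2Fa-Dpa, and PRK of the Calvin cycle fell (log2 fold change -0.78, limma, adjusted p = 0.0292). Their summed signal was 8507 to 9866 in wildtype and 6269 to 7589 in E2Fa-Dpa. Of 7 root genes 4 were measured, all lower, and PYK10 and the peroxidase gene AT5G17820 fell, by 0.59 and 0.80 on the log2 scale (limma, adjusted p = 0.0329 and 0.0324), and their summed signal was 4007 to 5054 in wildtype and 2728 to 3124 in E2Fa-Dpa. A random block for the close pairs ended the calls of PRK, PYK10 and AT5G17820 (limma, adjusted p = 0.131, 0.158 and 0.116), and averaging the pairs ended them too (0.471, 0.551 and 0.468). For trichomes, the cells in which SIM is best known, 1 of 10 markers was measured, TRY, with signals from 1.005 to 11.21 and a log2 fold change of -0.27 (limma, adjusted p = 0.294). The meristem gene CLV3, 1 of 5, lay between 0.3671 and 7.521. The stomatal genes SPCH, FAMA and MUTE had 0.51, 0.18 and 0.13, with none past the threshold. MUTE signals, from 0.7713 to 8.971, lay inside the range of the Bacillus probe sets without target, so no change of MUTE could be seen here. With a block for array set SPCH passed (limma, adjusted p = 0.0383), as did the leaf gene PSAN (0.0236). In that fit 11.7% of all probe sets rose and 2223 of 22746 fell. The groups of SPCH did not overlap, as in 9.53% of all probe sets for a rise. The stomatal genes had a summed signal of 47.24 to 67.83 in wildtype and 72.78 to 97.97 in E2Fa-Dpa. The part of such shifts in the values of FBL17, SIM and AT1G08180 was not tested.

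Genes next to the 3 genes on the chromosomes were looked up too. Over all probe sets 4.36% rose and 2.94% fell, so calls among so few loci say little about their regions. Of the 3 protein-coding loci on either side of FBL17 in RefSeq 3 were measured and none passed the test. Among them was the adjacent glutathione reductase gene GR, with 482 ± 104 and 401.7 ± 45.3 (SD, n = 4 each). Near SIM 3 loci were measured and none passed. Near AT1G08180 2 were measured, and AT1G08210 rose from 79.7 ± 10.5 to 134 ± 22.1 (log2 fold change 0.64, limma, adjusted p = 0.0293). These neighbours were chosen after group values had been seen.

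Genes whose levels ran most like those of each gene were found by Pearson's r of log2(signal + 16) over the 8 arrays, among 8357 probe sets that name 1 gene and have a mean signal of at least 16. For FBL17 these were AT4G16970 (r = 0.9977), AT2G34730 (0.9968), ENGase85B (0.9964), AT3G02670 (0.9951) and AT5G03700 (0.9950). Since FBL17 differs so much between the groups, choosing by r picks genes that differ the same way, and their higher signals in E2Fa-Dpa add nothing to the choice. AT3G02670, for one, had 4.182 ± 3.62 in wildtype, a level that cannot be told from background, and 132 ± 45.5 in E2Fa-Dpa (SD, n = 4 each). An r of 0.90 or more with FBL17 was reached by 4.51% of these probe sets, against 0.622% for SIM and 0.383% for AT1G08180. The points share their group and their array set, and 8 arrays give high values of r easily, so the order is a description only.

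With the group means taken off, the probe sets nearest to FBL17 were those of TUB1, a beta-tubulin gene (r = 0.9756), EXGT-A3, a xyloglucan enzyme (0.9676), AT1G01170, AT5G25930 and AT3G47490. TUB1 went from 169.7 ± 23.2 to 326.1 ± 52.4, while EXGT-A3 went the other way, from 866.1 ± 111 to 552.7 ± 72.4 (SD, n = 4 each).

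For SIM the nearest levels were those of AT2G07180 (r = 0.9886), TPP2, a peptidase gene (0.9649), AT3G26380, AT5G57655 and AT5G01020, none of which changed between the groups past the threshold. After the group means were taken off AT2G07180 was again the nearest (0.9878), followed by AT4G05060, AT1G73240, AT1G55270 and AT4G25260. For AT1G08180 they were AT5G66650 (0.9703), AT2G45180, AT4G31340, AT4G30670 and AT1G22930, of which AT4G30670 fell, by 0.62 on the log2 scale (limma, adjusted p = 0.0412). After the group means were taken off AT1G05380 (0.9843) and AT1G16840 (0.9818) came first, then AT4G30670, AT5G66650 and AT5G40190. Between the 3 genes themselves r over 8 arrays was 0.37 for FBL17 and SIM, -0.67 for FBL17 and AT1G08180 and 0.19 for SIM and AT1G08180. With the group means taken off r was 0.41, -0.075 and 0.57 in the same order, so the -0.67 was not seen within the groups.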

How the data were processed

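Each probe set has a linear intensity per array, computed by the authors with MAS5, per the submitters' processing notes, which give no version. No detection calls or scaling target were given in the sources used here. Of 22810 probe sets, 64 manufacturer's controls were set aside and 22746 tested with no filter on low signal. Values were used as log2(signal + 16). E2Fa-Dpa was compared with wildtype by limma 3.58.1 under R 4.3.3, using lmFit and eBayes with a trend and no covariate, adjusted by Benjamini-Hochberg. The procedure was tested on simulated data with independent arrays. These held no array sets or close pairs, so the simulation says nothing about their effect on the calls. Precision is limited by there being 4 arrays a group. Array sets were read from the Bacillus control probe sets alone. Alternatives were pseudocounts, a signal filter, other scalings, blocks, fits within array sets, left-out arrays and a permutation test; averaging of close pairs was added after seeing the data.

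Probe sets were named from the platform annotation, and 13436 of 13513 matched RefSeq (TAIR10.1) gene numbers. Members, lists and alternatives were chosen with earlier results of these data known. Named are the 3 genes, measured list genes (1 probe set per gene, the highest mean) and the 5 most like each gene.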

Additional observations from a re-analysis of the deposited data

Results flagged for a closer look

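FBL17 in wildtype replicate 4, at a signal of 74.81, stood apart from the other 3 wildtype arrays, which lay at 100.5 to 101.3. It was picked out because its gap to the nearest of them took up most of the group's range. Without it the rise of FBL17 was 2.36 on the log2 scale (limma, adjusted p = 0.000397). By the same measure AT1G10690 in wildtype replicate 2 (23.66), AT2G28870 in wildtype replicate 1 (18.61) and AT2G37610 in wildtype replicate 1 (6.418) stood apart. In all 36 groups of 4 values were looked at, and chance alone picks out about 1 in 20.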

How the results depend on the processing

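The rise of FBL17 kept its direction under every alternative, from 2.04 with a pseudocount of 64 to 2.79 within the arrays with control RNA. It kept its call in limma under all of them except averaged close pairs (2.46, adjusted p = 0.105). With any single array left out it ranged from 2.36 to 2.55. SIM stayed above 0 (0.04 to 0.24) and AT1G08180 below 0 (-0.22 to -0.05), never past the threshold. The count of 1661 changed probe sets became 4876 when blocked on array set, 454 under a random block for close pairs, 2 with pairs averaged and 674 to 1696 with an array left out. It lost most without E2Fa-Dpa replicates 4 (674), 1 (717) and 3 (940) and wildtype replicates 1 (946) and 2 (985). The 5 changed list genes became 3 with the random block, 0 with pairs averaged (limma, 5 at an unadjusted p under 0.05) and 3 to 5 with an array left out, 3 being reached when wildtype replicate 1 or 4, or any of replicates 1, 3 and 4 of E2Fa-Dpa, was out. Within the arrays without control RNA 3 list genes rose and 1 fell, the lowest difference there being that of SKP2A (-1.30 on the log2 scale).

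The shift of FBL17 over SIM, 2.34, was 1.96 with a pseudocount of 64 and 1.94 and 2.74 within the array sets. That over AT1G08180, 2.59, was 2.85 and 2.10 with pseudocounts of 1 and 64 and 2.17 and 3.00 within the sets. With pairs averaged the fit has fewer samples; the cause of the other moves was not tested.

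Both groups use the replicate numbers 1 to 4, but same-numbered arrays did not all deviate together. Correlations were -0.519 and -0.359 for replicates 1 and 3, whose arrays lie in different array sets. They were 0.443 and 0.526 for replicates 2 and 4, whose arrays lie in the same set. With the replicate number as a block 854 probe sets and 3 list genes changed, and FBL17 kept its call (limma, adjusted p = 0.00257).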
